A study of Caenorhabditis elegans with 2 samples.

Results

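The genes described here are the small nuclear RNA (snRNA) genes of Caenorhabditis elegans: all 129 genes of biotype snRNA in the Ensembl annotation of genome build WBcel235 (ce11) on chromosomes I to V and X, out of 46890 annotated nuclear genes. Binding of SCRT-1, a zinc finger protein related to Scratch and Snail, was mapped by anti-GFP chromatin immunoprecipitation and sequencing (ChIP-seq). The strain, OP802, carries the integrated transgene wgIs802, which encodes SCRT-1 fused to TY1, EGFP and 3xFLAG together with unc-119(+), in an unc-119(tm4063) background. Both samples are biological replicates of this 1 strain, taken as whole early embryos 2 h old after egg bleaching, so there is no other genotype, stage or treatment to compare. Chromatin was sonicated to 200 to 800 bp, the control library named in the labels was not analysed here, and the number of reads behind each library is unknown.

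snRNAs are the RNA cores of the spliceosome. U1 pairs with the 5 prime splice site, U2 with the branch site, and U4, U5 and U6 join as a tri-snRNP, within which U6 takes part in the catalytic centre. In nematodes, spliced-leader RNAs also donate a short leader to the 5 prime end of many messages by trans-splicing: SL1 (sls-1 genes) is the general leader and SL2 (sls-2 genes) is used mostly at downstream genes of operons. In animals, most snRNA genes are transcribed by RNA polymerase II and U6 genes by RNA polymerase III. Both kinds of promoter are recognised through a proximal element by the SNAPc complex, and U6 promoters also hold a TATA box.

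The annotation names sls-1, sls-2 and smy genes, but it gives no U type for the others. Those genes were therefore grouped by a short word in the transcript: ACTTACCTG for the U1-word group (13 genes), GTAGTATC for the U2-word group (20), AGCTTTGCG for the U4-word group (5), GCCTTTTAC for the U5-word group (12) and ACAGAGA for the U6-word group (24). Of these 74 genes, 5 lacked the word and were added because they were at least 75% identical to a member. The remaining genes were 12 sls-1, 18 sls-2, 10 smy and 15 others. The group names describe sequence and are not annotations.

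The promoters and 5 prime ends of the genes that carried a binding site are shown because the position of each summit is read against them. Each stretch runs 5 prime to 3 prime on the strand of the gene, from 75 bases before to 25 bases from the annotated start, in the RefSeq sequence of WBcel235. Capitals mark a spaced element, AACNC and GTC with any 7 bases between them, and the word TATATAA. The U6-word genes come first.
W05B2.8, chrIII:10989604-10989703, plus strand: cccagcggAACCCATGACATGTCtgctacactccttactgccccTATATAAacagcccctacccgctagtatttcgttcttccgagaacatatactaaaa
C28A5.7, chrIII:4426931-4427030, minus strand: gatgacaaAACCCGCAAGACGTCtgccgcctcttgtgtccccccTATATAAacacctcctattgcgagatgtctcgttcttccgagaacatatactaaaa
F54D8.7, chrIII:5080874-5080973, minus strand: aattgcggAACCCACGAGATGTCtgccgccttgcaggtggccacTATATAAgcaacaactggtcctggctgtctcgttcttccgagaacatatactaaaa
R07E5.16, chrIII:4414110-4414209, plus strand: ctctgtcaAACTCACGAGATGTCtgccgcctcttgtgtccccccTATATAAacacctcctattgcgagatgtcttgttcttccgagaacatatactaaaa

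The 3 U1-word genes shown here held the same spaced element and no TATATAA, and their transcripts open with the stretch that contains ACTTACCTG, the part of U1 that pairs with the 5 prime splice site. T27E4.22, which overlaps T27E4.12 and starts inside it, lacks the word, was grouped by identity and is not shown.
sup-39, chrII:6968534-6968633, minus strand: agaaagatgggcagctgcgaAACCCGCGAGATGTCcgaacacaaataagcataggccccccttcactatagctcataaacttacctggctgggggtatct
T27E4.12, chrV:9091599-9091698, minus strand: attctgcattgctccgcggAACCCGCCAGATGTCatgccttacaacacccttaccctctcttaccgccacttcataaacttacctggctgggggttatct
T08G5.11, chrV:14028611-14028710, minus strand: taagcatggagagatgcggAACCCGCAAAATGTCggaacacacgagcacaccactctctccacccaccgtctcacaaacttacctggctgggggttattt

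The U4-word gene and both sls-2 genes with a site lacked an exact match to the element. The sls-2 transcripts begin with the SL2 leader.
C52E4.8, chrV:11980043-11980142, plus strand: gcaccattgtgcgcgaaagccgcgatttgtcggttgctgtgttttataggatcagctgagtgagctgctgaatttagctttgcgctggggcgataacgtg
sls-2.2, chrII:5543523-5543622, plus strand: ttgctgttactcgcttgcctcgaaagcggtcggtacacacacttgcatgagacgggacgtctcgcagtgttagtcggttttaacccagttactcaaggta
sls-2.1, chrII:5844790-5844889, plus strand: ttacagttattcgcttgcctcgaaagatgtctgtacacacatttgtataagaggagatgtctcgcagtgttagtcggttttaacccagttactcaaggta

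A site is a peak of the conservative list, the deposited list of 1211 peaks that were reproducible between the replicates, and a gene was counted as having a site when a summit lay within 100 bp of its start. Of the 129 snRNA genes, 12 had a site (9.3%, exact 95% interval 4.9 to 15.7%), against 1.37% of all annotated gene starts. The share was higher at tRNA genes (252 of 612, 41.2%) and snoRNA genes (58 of 346, 16.8%), and it was 0.391% at protein-coding genes. A raised share was therefore not particular to snRNA genes. The 12 genes shared 10 distinct sites: sup-39 contains the nested mir-1831, a 22-base gene that the annotation also files as snRNA, and T27E4.12 overlaps T27E4.22 on the same strand. The U6-word group had 4 genes with a site of 24 (16.7%, 4.74 to 37.4%), the U1-word group 4 of 13 (30.8%, 9.09 to 61.4%) and the U4-word group 1 of 5 (20%, 0.505 to 71.6%). Of the sls-2 genes 2 of 18 had one (11.1%, 1.38 to 34.7%). None was found at the 20 U2-word, 12 U5-word, 12 sls-1 or 10 smy genes, whose upper limits were 16.8, 26.5, 26.5 and 30.8%. These intervals overlap between all groups, and genes that are copies of each other are not independent. The groups also differed in the share of 30-base stretches within 100 bp of the start that occur once in the genome. Its median was 32% in the U2-word, 60.5% in the U5-word, 0% in the sls-1 and 100% in the smy genes. In the U1-word and U6-word genes it was 54.7% and 42.1%. The part of read assignment in the groups without a site was not tested.

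**Figure D1:**
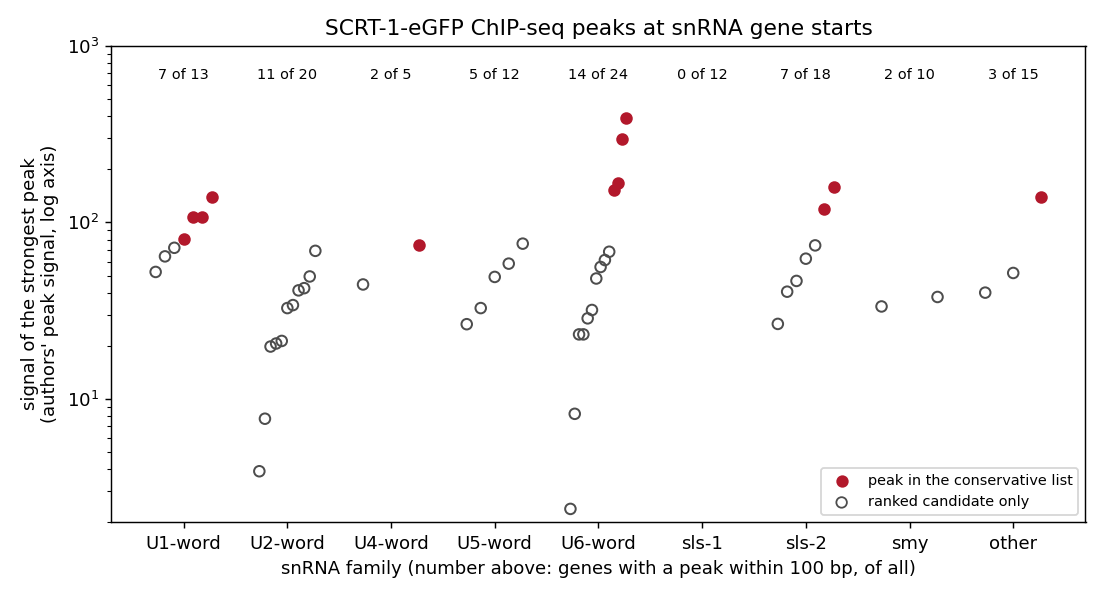
Signal of the strongest peak within 100 bp of each snRNA gene start, by group, on a log axis; filled points are peaks of the conservative list and open points are ranked candidates only. Numbers above give genes with any such peak, of all genes in the group. The 4 U6-word sites lie between 152 and 392, and no sls-1 gene has a point.

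The peak caller's signal, which the authors deposited without a stated scale, was highest at 3 of the 4 U6-word sites, and sls-2.2 stood above the fourth, R07E5.16. W05B2.8 reached 392 and was 43rd of the 1211 sites, with 231 and 148 in replicates 1 and 2. C28A5.7 reached 296 (171 and 118 in replicates 1 and 2) and ranked 91st. F54D8.7 reached 167 (104 and 63.5), and R07E5.16 reached 152 (87.3 and 62.3). All 4 lay on chromosome III, which holds 7 of the 24 U6-word genes, whereas the 13 U6-word genes of chromosome IV had no site. W05B2.8 lies in an intron of dhc-4, C28A5.7 in an intron of C28A5.6 and R07E5.16 in an intron of mpc-1, each on the strand of its host, and F54D8.7 lies 137 bp from alh-1. C28A5.7 also overlaps the non-coding RNA gene C28A5.9 on the opposite strand. All 4 sites were also in the thresholded list of each replicate alone.

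The sls-2 sites were of middle rank. sls-2.2 reached 159, with 80.5 and 72.1 in replicates 1 and 2, and sls-2.1 had 119, with 67.7 and 52. Both lie on chromosome II outside any protein-coding gene, and both sites were in each replicate's own thresholded list. sls-2.2 overlaps the non-coding RNA gene C17C3.23 on the opposite strand. Just beyond the 100 bp limit, sls-2.4 had a summit 103 bp downstream of its start with a signal of 231, and sls-2.9 had one at -125 bp with a signal of 275. The first of these summits lay 3 bp from the start of the non-coding RNA R12E2.18 and the second 7 bp from the start of the tRNA gene M01E5.t1, so the peak cannot be assigned to the sls-2 gene. In replicate 2's own thresholded list, the summit near sls-2.4 fell at 99 bp, within the limit.

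The U1-word sites were weaker than the U6-word sites, and less well shared between the replicates' own lists than the U6-word and sls-2 sites. sup-39 is a U1 gene that was first found as a suppressor of a splicing mutation. Its site reached 140, with 65.4 and 68.5 in replicates 1 and 2, and it was the only one of the 10 that was higher in replicate 2. The T27E4.12 and T27E4.22 site had 108 (52.2 and 50.3) and was in the thresholded list of replicate 1 alone. T08G5.11 had 80.6 (52.2 and 29) and was in neither replicate's own list. For sup-39 and T08G5.11 the matched summit in replicate 2 lay 111 and 150 bp downstream of the start, outside the 100 bp limit, while that of replicate 1 lay at 44 and 33 bp. sup-6, another U1-word suppressor gene on chromosome II, had no candidate. sup-39 lies in an intron of C15F1.5, on the strand of its host, and overlaps the non-coding RNA gene C15F1.14 on the opposite strand. T27E4.12 and T27E4.22 likewise overlap T27E4.15, and T08G5.11 overlaps T08G5.18. Whether these peaks belong to the U1-word genes or to the overlapping genes was not tested.

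The single U4-word site, at C52E4.8, had the lowest signal of the 10 at 74.7, with 41.9 in replicate 1 and 33.2 in replicate 2, and neither replicate's own thresholded list held it. The same peak lay at -443 bp from a start of snr-4, an Sm protein gene, so it is counted for that gene as well. The protein-coding gene nearest to C52E4.8 is rpt-1, 273 bp away. T11F9.15, which is identical to C52E4.8 over all 144 bases, had no candidate, although the 200 bases before each start are made only of stretches found once in the genome.

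Between the replicates, 9 of the 10 sites had a higher signal in replicate 1, and the median ratio of replicate 1 to replicate 2 was 1.35, close to the 1.28 of all 1211 sites. Of the 10 sites, 6 overlapped a thresholded peak in both replicates, 1 in replicate 1 alone, 1 in replicate 2 alone (sup-39) and 2 in neither. In the replicates' own thresholded lists, 8 snRNA genes had a summit within 100 bp in each, where 0.987% of all gene starts had one in replicate 1 and 0.926% in replicate 2. Replicate 2's list added F07C6.5, a U5-word gene with a signal of 47 there, and sls-2.4.

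**Figure D2:**
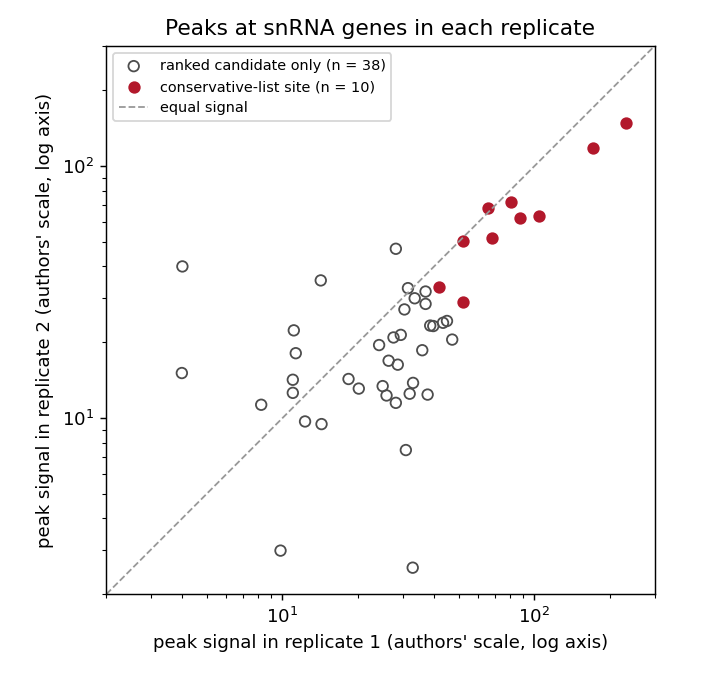
Peak signal in replicate 2 against replicate 1 for the 48 distinct peaks within 100 bp of an snRNA gene start, on log axes, with a dashed line at equal signal. The 10 filled sites sit at or to the right of 41.9 in replicate 1 and, apart from 1, below the line, whereas the 38 open candidates scatter more.

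The ranked list holds 101059 candidates, most of which did not reach the reproducibility threshold. A candidate lay within 100 bp of 51 of the 129 snRNA genes (39.5%, 31 to 48.5%), against 18% of all gene starts. The share was 68.5% at tRNA genes, 48.3% at snoRNA genes and 20.9% at protein-coding genes. Each of the 51 snRNA genes had exactly 1 candidate. The 39 genes with a candidate but no site had signals of 2.38 to 75.8, and the remaining 78 had none. Across the 48 distinct peaks, the signals of the replicates had a Spearman rho of 0.625 and a Pearson r of 0.915. These points share the 2 libraries and were chosen by the peak caller, and over the 38 candidates alone rho was 0.299.

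The candidates with the highest signal were spread over the groups. F07C6.5 (U5-word) led with 75.8 (28.2 in replicate 1, 47 in replicate 2), followed by sls-2.18 with 74.1 (45 and 24.3). H27M09.6 (U1-word) had 71.8 (37 and 28.4), Y54G9A.8 (U2-word) 69 (37 and 31.8) and F54C8.9 (U6-word) 68.2 (47.2 and 20.5). In the U2-word group, Y47H9A.2 and R05D7.6 followed with 49.4 and 42.4, and in the U5-word group, ZK897.2 and ZK897.4 had 58.4 and 49.1. The smy genes smy-5 and smy-6 had 37.8 and 33.4, and the second U4-word gene with a candidate, F10D2.13, had 44.5. Among sls-2 genes sls-2.3 came next with 62.3, and of the unnamed genes M163.13 and F35B3.10 had 51.7 and 40.

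The irreproducible discovery rate (IDR) is an estimate of how many peaks of the same or better rank do not repeat between replicates. Over the whole ranked list, 112 peaks that reached an IDR of 0.01 were absent from the conservative list. At the snRNA genes, the line between a site and a candidate fell at an IDR of 0.01. Just inside it lay T08G5.11 at an IDR of 0.00833 and C52E4.8 at 0.00789. Just outside it lay Y54G9A.8 at 0.0153, H27M09.6 at 0.023 and sls-2.18 at 0.0282. At an IDR of 0.05 a further 9 genes passed, of which 2 were U2-word, 2 U5-word, 2 sls-2, 2 U1-word and 1 U6-word. The absence of sites in the U2-word and U5-word groups therefore held at the stricter threshold. The share of all gene starts that pass an IDR of 0.05 was not counted, so the 9 added genes have no background beside them. Some of these added peaks had replicate summits outside the 100 bp limit. F56H6.14 (U2-word) had a joint signal of only 7.72, with summits at -256 and -175 bp in replicates 1 and 2. For F07C6.5 and ZK897.2 (U5-word) the summit of replicate 1 lay at -116 bp. For T08B6.62 (U6-word) that of replicate 2 lay at 101 bp. F07C6.5 was also in the optimal list, a second deposited list over both replicates.

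The U6-word group offered a comparison of copies. Within it, 14 genes are identical over all 102 bases. Of these, 3 had a site (W05B2.8, C28A5.7 and R07E5.16), 5 a candidate only (2.38 to 68.2) and 6 no candidate. Among 3 other genes that are identical over 101 bases, F54D8.7 had a site at 167, T08B6.62 a candidate at 55.9 and Y17G9A.85 none. Reads within an identical gene cannot be assigned to one copy, so the flanks carry the information. In the 200 bases before the start, the share of 30-base stretches found once in the genome was 100% at W05B2.8, 84.8% at C28A5.7 and 85.4% at R07E5.16. It was 5.8% at K09B11.11 and 6.4% at K09B11.16, which had no candidate. It was also 100% at Y17G9A.90 and Y9C9A.111, which had none either. The read length is not given in the sources used here, and the part of read assignment in these differences was not tested.

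**Figure D3:**
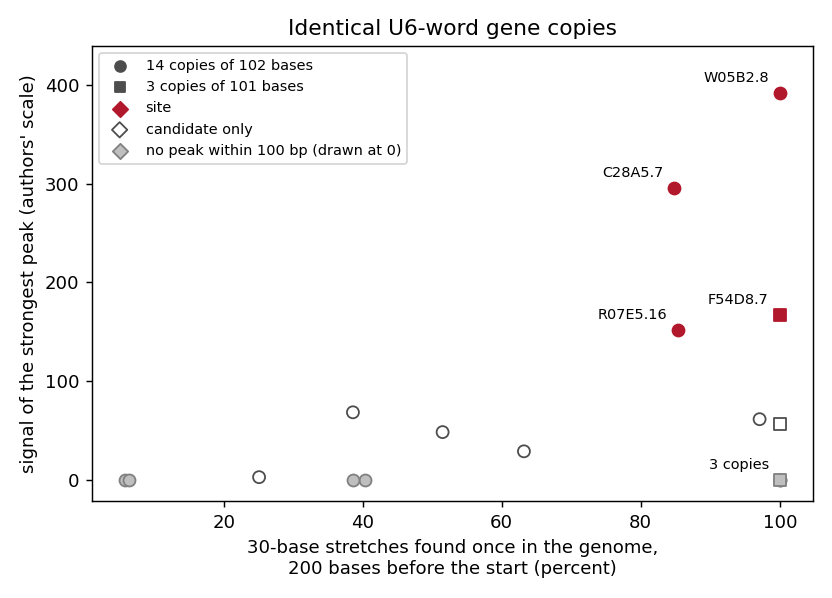
Signal of the strongest peak (authors' scale) against the share of 30-base stretches in the 200 bases before the start that occur once in the genome, for the identical U6-word copies; circles are the 14 copies of 102 bases and squares the 3 of 101 bases. The 4 copies with a site have shares of 84.8 to 100%, and 3 copies with no peak, drawn at 0, also stand at 100%.

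The promoters of 2 of these copies without a candidate are shown for comparison with W05B2.8. All 3 transcripts are the same, and the flanks differ.
Y17G9A.90, chrIV:4866736-4866835, plus strand: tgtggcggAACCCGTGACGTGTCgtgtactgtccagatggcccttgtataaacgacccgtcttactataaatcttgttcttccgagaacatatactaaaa
Y9C9A.111, chrIV:4930879-4930978, plus strand: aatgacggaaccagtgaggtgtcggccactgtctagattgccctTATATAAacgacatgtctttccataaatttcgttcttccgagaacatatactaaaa
Y17G9A.90 held the spaced element without TATATAA, although it held TATAAA at the same place. Y9C9A.111 held TATATAA without an exact match to the element. W05B2.8 held both the element and TATATAA, but so did other copies that had no site. Among its identical copies these were K09B11.11, K09B11.14 and K09B11.16, which had no candidate, and K09C6.12, which had a candidate only. In the set of 101 bases, Y17G9A.85 held both with no candidate, and T08B6.62 held both with a candidate only.

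The 12 sls-1 genes could not be read in the same way. They lie in a repeat at chrV:17118154-17132107 that also holds 12 rRNA genes, and in 11 of them no 30-base stretch within 100 bp of the start was found only once in the genome. Of the sls-1 genes, 10 are identical over 98 bases, and the first 25 bases of 1 of them, which hold the SL1 leader, are shown. The annotated sls-1.1 and sls-1.5 are 68 bases long.
sls-1.10, chrV:17120767-17120791, minus strand: cggtttaattacccaagtttgaggt
No candidate lay within 100 bp of any sls-1 start, and the nearest was 232 bp away. Within the repeat the ranked list held 8 candidates, and 3 of them reached an IDR of 0.01. The strongest, at chrV:17122104-17122241, reached 269 (175 and 86.6 in replicates 1 and 2) and lay 241 bp downstream of the start of rrn-4.6. The other 2 had signals of 125 and 102. None of the 3 was in the conservative list, where they form part of 112 peaks at that IDR that are absent from it. Whether the sls-1 genes were bound cannot be told from these lists.

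At the 12 genes with a site, the summit lay between -49 and 61 bp from the start, where negative is upstream, with a median of 30.5 bp, and 7 summits were downstream. The direction of this median was not stable: it was 20 bp in replicate 2's thresholded list, -14 bp in that of replicate 1, 8 bp in the optimal list and -3 bp at an IDR of 0.05. The U6-word summits were at -20 and -5 bp (C28A5.7 and F54D8.7) and at 28 and 33 bp (W05B2.8 and R07E5.16), which places none of them over the TATA word. Those at 28 and 33 bp, and that of C52E4.8 at 48 bp, lie inside genes that have identical copies. These genes hold no 30-base stretch found once in the genome. In the individual replicates the summit of W05B2.8 lay at 53 and 17 bp and that of R07E5.16 at 7 and 61 bp, so the replicates' own positions differed from each other. The median at tRNA genes was 20 bp and at snoRNA genes -45 bp, over 252 and 58 genes. No test was made of these differences, and the sonicated fragments were about as long as the whole window or longer.

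**Figure D4:**
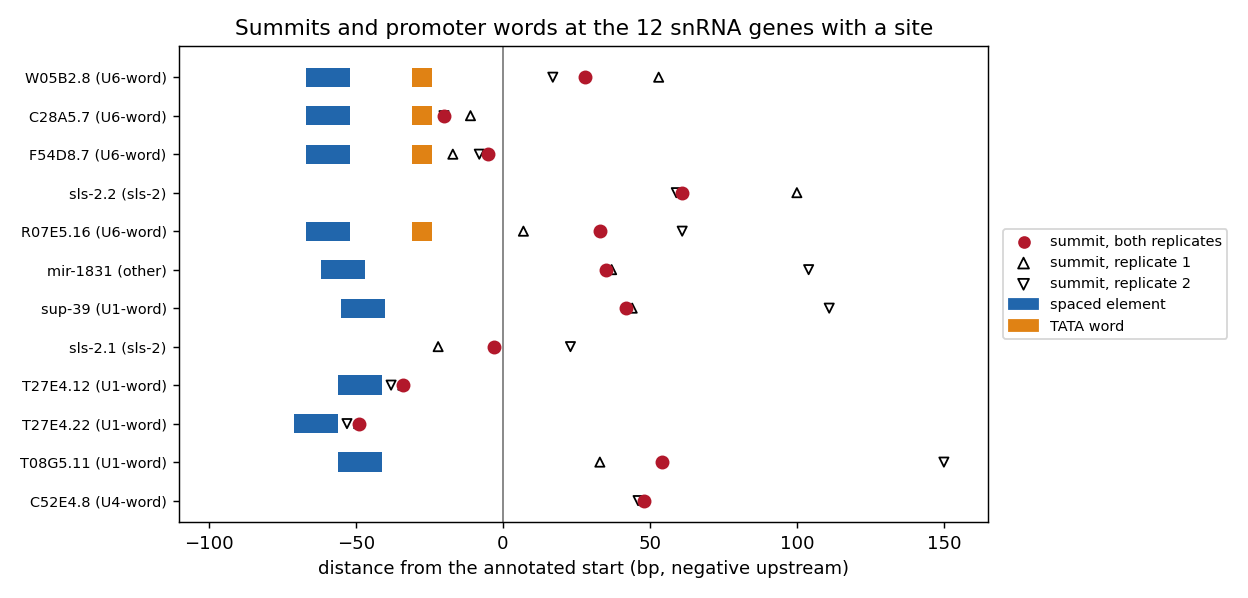
Distance of each summit from the annotated start (bp, negative upstream) for the 12 snRNA genes with a site, ordered by signal; filled circles are the joint summit and triangles the summit of each replicate. Bars show the spaced element, which lies upstream in 9 of the 12 genes, and the TATA word, which is present in the 4 U6-word genes.

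The spaced element was read from these promoters, so its share among them is a description and supports nothing. Searched on the sense strand in the 100 bases before the start, it occurred in 45 of the 129 snRNA genes (34.9%) and in 0.446% of 46886 gene starts. It was present in 11 of 13 U1-word genes, 9 of 12 U5-word genes, 11 of 24 U6-word genes and 9 of 18 sls-2 genes, and in none of the U2-word or sls-1 genes. It began at -67 or -66 in the U6-word genes and at -59 in all 9 sls-2 genes that held it. The starts ran from -71 to -55 in the U1-word genes and from -60 to -29 in the U5-word genes, with medians of -56 and -58. Of the genes with a site 9 of 12 held it, at 7 of the 10 distinct sites, as did 12 of the 39 with a candidate only and 24 of the 78 with no candidate. The U5-word genes held it most often after the U1-word genes and had no site.

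TATATAA on the sense strand occurred in 15 of the 24 U6-word genes, beginning at -31 or -30, and in none of the U1-word, U4-word, U5-word, sls-1, sls-2 or smy genes. It was found in 2.43% of all gene starts. TATAAA was present in 12 of the 129 genes (9.3%), against 10.9% of all gene starts. It was concentrated in the U6-word group, where 9 of 24 genes held it (37.5%). Of the 12 genes with a site, 3 held it.

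CAGGTG is the E-box that relatives of SCRT-1 recognise, and it was searched on both strands. It lay in the 100 bases before the start of 7 snRNA genes (5.43%, against 2.44% of all gene starts), 5 of them U5-word genes. Of the genes with a site only F54D8.7 had it, visible in its promoter above between the spaced element and the TATA word. Within 50 bp of the summit it was found at that 1 of 10 sites, and at 3.47% of all 1211 sites. GTTCGA, a part of the tRNA B box, occurred upstream of 3 snRNA genes and GAGAGA upstream of 10, against 2.97% and 6.75% of all gene starts, and no gene with a site had GTTCGA.

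The proteins that act with these RNAs were examined by the same peaks, with a site counted when a summit lay from 1000 bp upstream to 200 bp downstream of a start. Of 70 names listed, 64 matched a protein-coding gene and 6 had a site (9.38%), against 2.99% of all protein-coding genes. Of the Sm and LSm proteins, which form the rings around snRNAs, 3 of 14 had one: snr-1 with 136 (76.1 and 58.1 in replicates 1 and 2), lsm-3 with 120 (53 and 69.3) and snr-4 with 74.7. Of the proteins listed as acting in or with the U1 to U6 snRNPs, 3 of 24 had a site. These were prp-19 with 108 (68.1 and 44.8), prp-31 with 107 (67.6 and 36.4) and repo-1 with 78 (44.7 and 29.9). Only snr-1 was in the thresholded list of both replicates, and the snr-4 site is the one at C52E4.8. Relative to the start, the summits lay at -396 bp for snr-1, -932 bp for lsm-3, -575 bp for prp-19, -187 bp for prp-31 and 59 bp for repo-1. No site was found at the 8 genes for SNAPc subunits and TBP, the 3 for spliced-leader RNP proteins, the 4 for snRNP assembly or the 11 for Integrator subunits.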

How the data were processed

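Anti-GFP ChIP-seq peak lists of 2 replicates were analysed. Per the labels, coordinates are in ce11. The authors deposited ranked and thresholded lists for each replicate, for the replicate comparison and for a second, optimal list. The signal of a peak is the authors' own value, without a stated scale, and was used only within a list. The ranked lists give −log10 of the global IDR as deposited by the authors. The score deposited beside it was not used. No source used here gives the aligner, peak caller or depth, so no interval covers read sampling. Exact (Clopper-Pearson) 95% intervals treat genes as the unit.

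Gene models came from Ensembl release 115, and names and genome sequence from RefSeq (WBcel235); all 129 gene IDs matched a RefSeq name. Summits within 100 bp of a start were joined in Python 3.11.15 with pandas 2.3.3 and scipy 1.17.1, and the join was tested on simulated data. In the ranked list, 66793 records in the first set of input columns were identical to records of replicate 1's list and 0 to those of replicate 2, and 53497 in the second set were identical to those of replicate 2 and 0 to those of replicate 1. The columns were assigned accordingly; the replicate values of all 10 sites are records of the replicates' own labelled lists. Uniqueness was the share of 30-base stretches found once in the genome. Genes named are those with a site, the 5 strongest without one, and the 3 strongest per group. Other genes were named after their values were seen. The members and lists were chosen with earlier results of these data known, and the sequence groups and the spaced element after the data were examined. No test across groups was made. Alternatives were other peak lists, thresholds, windows, copies and single replicates.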

Additional observations from a re-analysis of the deposited data

How the results depend on the processing

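Of 12 genes with a site, the count stayed within 1.5 times under every alternative run except an IDR of 0.05, which gave 21, and genes whose sequence occurs once in the genome, which gave 7 of 83 such genes. Counts below are in the order U1-word, U2-word, U4-word, U5-word, U6-word, spliced leader and other (smy included), which were 4, 0, 1, 0, 4, 2 and 1. The optimal list gave 0 for U4-word and 1 for U5-word. An IDR of 0.001 gave 1 for U1-word and 0 for U4-word. An IDR of 0.05 gave 2 for U2-word, 2 for U5-word and 4 for spliced leader. Windows of 50, 200 and 500 bp gave 1, 4 and 4 for spliced leader. Identical genes collapsed gave 2 for U6-word, and genes occurring once gave 0 for U4-word and 0 for U6-word, which that filter fixes, since the U4-word gene and all 4 U6-word genes with a site have identical copies. Without either replicate in turn, the count over all genes was 8, with 0 to 2 for U1-word, 0 for U4-word, 0 to 1 for U5-word and 0 for other.

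The median signal of 146 was 159 at an IDR of 0.001, 75.8 at 0.05, 155 at 200 bp, 155 at 500 bp, 130 with identical genes collapsed, 119 with genes occurring once and 67.8 to 87.3 without either replicate, on a single replicate's scale. The median offset of 30.5 bp was 8 in the optimal list, -3 at an IDR of 0.05, 12.5 with a 50 bp window, 16 with identical genes collapsed and -14 to 20 without either replicate, so its side of the start is not settled. Of genes with a candidate (51), there were 32 at 50 bp, 89 at 500 bp and 32 of the 83 genes occurring once. The 6 pathway genes became 1 at an IDR of 0.001, 11 at 0.05 and 1 within 100 bp of a start, with 2 to 4 without either replicate. Matching shares over all genes were not counted for the alternatives in this section, apart from gene starts in each replicate's thresholded list. The spaced element kept its count within 1.5 times when identical upstream stretches were counted once, and so did the replicate ratio over all candidates, both added after the data were seen. The causes were not tested. No paired analysis was possible because there is 1 group of 2 replicates. Depth is unknown, so a missing peak may be one that was not detectable.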
